A study of Homo sapiens with 2 samples.

Results

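The genes described here are the serine/arginine-rich splicing factors (SRSF) and the heterogeneous nuclear ribonucleoproteins (HNRNP), the main families of proteins that bind pre-messenger RNA and steer its splicing. Members were chosen by symbol, as every protein-coding gene named SRSF with a number or HNRNP, which gave 35 of the 28303 genes listed, 12 SRSF and 23 HNRNP. The families themselves were picked for description with earlier ratios of these data known, so their levels and ratios are a description and carry no test. HNRNPCL1 to HNRNPCL4, 4 genes with symbols of this form in the annotation, were not analysed here.

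RNA selected by its poly(A) tail was sequenced from the established human gastric cancer line HGC27 at passage 4-6. One library came from cells transfected with pcDNA3.1-linc01133, a plasmid that carries the long non-coding RNA LINC01133, and the other from cells given pcDNA3.1-control. Both were transfected with Turbofect, share the plasmid backbone and were harvested 48 h later. With a single library per group nothing can be set against a spread between replicates, and no p-value is given.

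SR proteins carry RNA recognition motifs and a domain rich in arginine and serine, bind exonic enhancers and recruit the splicing machinery to nearby sites. Heterogeneous nuclear ribonucleoproteins coat nascent transcripts and often oppose SR proteins, by blocking splice sites or looping out exons, and they also act in export, stability and translation of messenger RNA. Many genes of both families control their own level through alternatively spliced exons that send the transcript to nonsense-mediated decay. LINC01133 has been reported to bind SRSF6 in colorectal cancer cells.

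The plasmid's gene checked the labels: it was higher where the label says that it was overexpressed. LINC01133 (ENSG00000224259, chr1:159961218-159984750, GRCh38) had 1.44 FPKM in the overexpression library (95% counting interval 1.13 to 1.81) and 0.0809 FPKM in the control library (0.0220 to 0.207), from 74 and 4 fragments. FPKM counts fragments relative to the length of a gene's exons and to the depth of the library. The depth was 16302581 counted fragments in the overexpression library and 15666629 in the control library, and all intervals cover counting error only. The markers of an epithelial identity were near 0 in both: of 10 epithelial markers 9 had a value and 0 passed a mean of 1 FPKM, with a summed level of 1.88 FPKM in the overexpression library and 2.21 FPKM in the control library, and KRT18 was listed at 0 in both. The gastric markers MUC5AC and TFF2 were at 0 too, while 5 of 6 mesenchymal markers passed, with VIM at 210.0 FPKM in the overexpression library and 198 FPKM in the control library. The labelled tissue of origin therefore does not show in its defining markers.

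The sequences of the genes at the ends of both families show the property that went with their ratios, the share of G and C. Among genes with a mean of at least 1 FPKM over both libraries, SRSF11 had the highest and SRSF4 the lowest ratio of overexpression over control of the SRSF genes, and HNRNPDL the highest and HNRNPUL1 the lowest of the HNRNP genes. The last 120 coding bases before the stop codon are given below, 5′ to 3′ on the gene's own strand (GENCODE 29, GRCh38), from the longest coding transcript of SRSF11 (chr1:70205682-70253052, plus strand), SRSF4 (chr1:29147743-29181987, minus strand), HNRNPDL (chr4:82422564-82430408, minus strand) and HNRNPUL1 (chr19:41262496-41307598, plus strand). Capitals mark G and C.
SRSF11: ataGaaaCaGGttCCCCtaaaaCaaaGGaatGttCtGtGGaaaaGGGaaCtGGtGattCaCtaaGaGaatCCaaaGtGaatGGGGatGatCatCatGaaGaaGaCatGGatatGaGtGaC
SRSF4: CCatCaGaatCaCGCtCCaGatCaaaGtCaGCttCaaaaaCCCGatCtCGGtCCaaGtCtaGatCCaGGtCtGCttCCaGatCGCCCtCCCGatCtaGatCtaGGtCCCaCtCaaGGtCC
HNRNPDL: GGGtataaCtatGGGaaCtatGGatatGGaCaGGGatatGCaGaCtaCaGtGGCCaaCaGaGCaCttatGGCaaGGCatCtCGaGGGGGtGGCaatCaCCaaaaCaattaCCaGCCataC
HNRNPUL1: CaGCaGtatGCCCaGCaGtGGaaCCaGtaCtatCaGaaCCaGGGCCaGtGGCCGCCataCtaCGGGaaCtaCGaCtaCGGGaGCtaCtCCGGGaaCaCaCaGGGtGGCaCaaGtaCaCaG
G and C made up 40.0% of this stretch in SRSF11 and 52.5% in SRSF4, and 48.3% in HNRNPDL and 57.5% in HNRNPUL1. Over the whole coding sequence the values were 47.6% in SRSF11 and 54.2% in SRSF4, and 50.4% in HNRNPDL and 58.0% in HNRNPUL1. The SRSF11 coding sequence writes 64.5% of its arginine codons as AGA or AGG, against 41.2% in SRSF4, and HNRNPDL 33.3%, against 21.2% in HNRNPUL1. In each of these pairs the gene with the higher ratio had the lower GC content and the larger share of these codons. The pairs were picked by their ratios, and the codon share did not follow the ratio in every member. It was 12.5% in SRSF1, with a ratio of 2.14, and 75% in HNRNPF, with a ratio of 0.962.

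The promoters of the same genes had the GC order of the coding sequences in the SRSF pair but not in the HNRNP pair. The 250 bases before the annotated start are given below, 5′ to 3′ on the gene's strand, from RefSeq (GRCh38.p14), for SRSF11 (chr1:70205446-70205695, plus strand), SRSF4 (chr1:29181901-29182150, minus strand), HNRNPDL (chr4:82430463-82430712, minus strand) and HNRNPUL1 (chr19:41262307-41262556, plus strand). Capitals mark matches, on either strand, to the letters of the TATA box (TATAAA), the CCAAT box (CCAAT), the GC box (GGGCGG), an ETS site (CCGGAAG) and an NRF1 site (GCATGCGC).
SRSF11: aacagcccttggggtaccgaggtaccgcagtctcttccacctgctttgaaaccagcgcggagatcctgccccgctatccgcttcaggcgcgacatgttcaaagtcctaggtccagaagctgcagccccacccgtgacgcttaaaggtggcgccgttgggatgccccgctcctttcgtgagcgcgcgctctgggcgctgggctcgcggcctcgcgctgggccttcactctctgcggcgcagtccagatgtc
SRSF4: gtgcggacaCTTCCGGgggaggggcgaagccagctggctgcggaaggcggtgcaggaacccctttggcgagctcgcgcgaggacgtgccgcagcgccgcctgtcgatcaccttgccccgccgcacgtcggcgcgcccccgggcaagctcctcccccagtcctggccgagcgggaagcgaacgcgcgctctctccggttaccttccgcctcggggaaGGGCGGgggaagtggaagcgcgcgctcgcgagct
HNRNPDL: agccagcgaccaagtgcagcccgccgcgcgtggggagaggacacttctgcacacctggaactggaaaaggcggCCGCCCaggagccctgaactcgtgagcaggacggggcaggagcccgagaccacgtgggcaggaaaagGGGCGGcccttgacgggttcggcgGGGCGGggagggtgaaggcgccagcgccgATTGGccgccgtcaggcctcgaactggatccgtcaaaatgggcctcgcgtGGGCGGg
HNRNPUL1: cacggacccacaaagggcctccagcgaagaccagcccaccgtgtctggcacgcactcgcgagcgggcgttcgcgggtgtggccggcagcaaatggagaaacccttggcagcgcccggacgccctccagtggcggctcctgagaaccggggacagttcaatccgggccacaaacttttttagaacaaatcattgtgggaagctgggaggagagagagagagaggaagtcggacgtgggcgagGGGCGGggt
GC content was 64.8% in the SRSF11 window and 73.6% in that of SRSF4, but 70.0% in that of HNRNPDL and 63.6% in that of HNRNPUL1. None of the 5 letter strings is in the SRSF11 window, and that of HNRNPDL holds the CCAAT box and the GC box. A promoter was found for 32 of the 35 genes, 46 promoters in all. Over the 300 bases in the table, the GC box was in 63.0% of these 46 and in 45.0% of all 35116 promoters, the CCAAT box in 50% and 34.6%, the TATA box in 13.0% and 11.5%, the ETS site in 10.9% and 10.3%, and the NRF1 site in 6.52% and 3.05%. No string lies within another of the 5, and a match of letters is not a measured binding site. Some genes have several of the 46 promoters. The 32 genes had a median GC content of 65.8% in a window of 250 bases each, beside 58.7% over the 300 bases of all promoters.

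Most of the splicing factor genes were higher in the overexpression library, while few reached a 2-fold difference. Of the 35 genes, 32 passed a mean of 1 FPKM over both libraries, 11 SRSF and 21 HNRNP, and 27 of the 32 were higher in the overexpression library by any amount, as were 55.4% of all genes past the filter. At a log2 ratio of FPKM + 1 of at least 1, the threshold for 2-fold used throughout, 4 of 32 genes (12.5%) were higher, namely SRSF11, SRSF10, SRSF1 and HNRNPDL. Among all genes past the same filter 11.9% were, and among protein-coding genes 11.7%, so the share of the splicing factors lay near the background. None of the 32 was at least 2-fold lower, as against 0.444% of all genes and 0.0484% of protein-coding genes. By family, 3 of 11 SRSF genes (27.3%) and 1 of 21 HNRNP genes (4.76%) passed. The genes just inside the threshold were HNRNPDL at 1.02 and SRSF1 at 1.08, and those just outside were HNRNPH2 at 0.97 and HNRNPA2B1 at 0.95.

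Smaller differences in the same direction were common. The median log2 ratio was 0.64 over the SRSF genes and 0.38 over the HNRNP genes, beside 0.10 over all genes and 0.07 over protein-coding genes past the filter, and 26 of the 32 lay above the median gene. Under other scalings, which shift every log2 ratio of FPKM down by 0.21 to 0.25, both medians stayed above 0, and 4 to 6 single genes changed the side of 0. For 28 of the 32 the deposited values give whole fragments, and the 95% interval of the FPKM ratio lay wholly above 1 for 22, wholly below 1 for HNRNPA0, HNRNPF and HNRNPUL1, and held 1 for SRSF4, SRSF9 and HNRNPM. Over all genes with whole fragments past the filter, the interval lay above 1 for 42.6% and below 1 for 32.2%. In these bulk libraries, a different mix of cells within the line and a different amount of RNA per cell cannot be told apart.

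**Figure D1:**
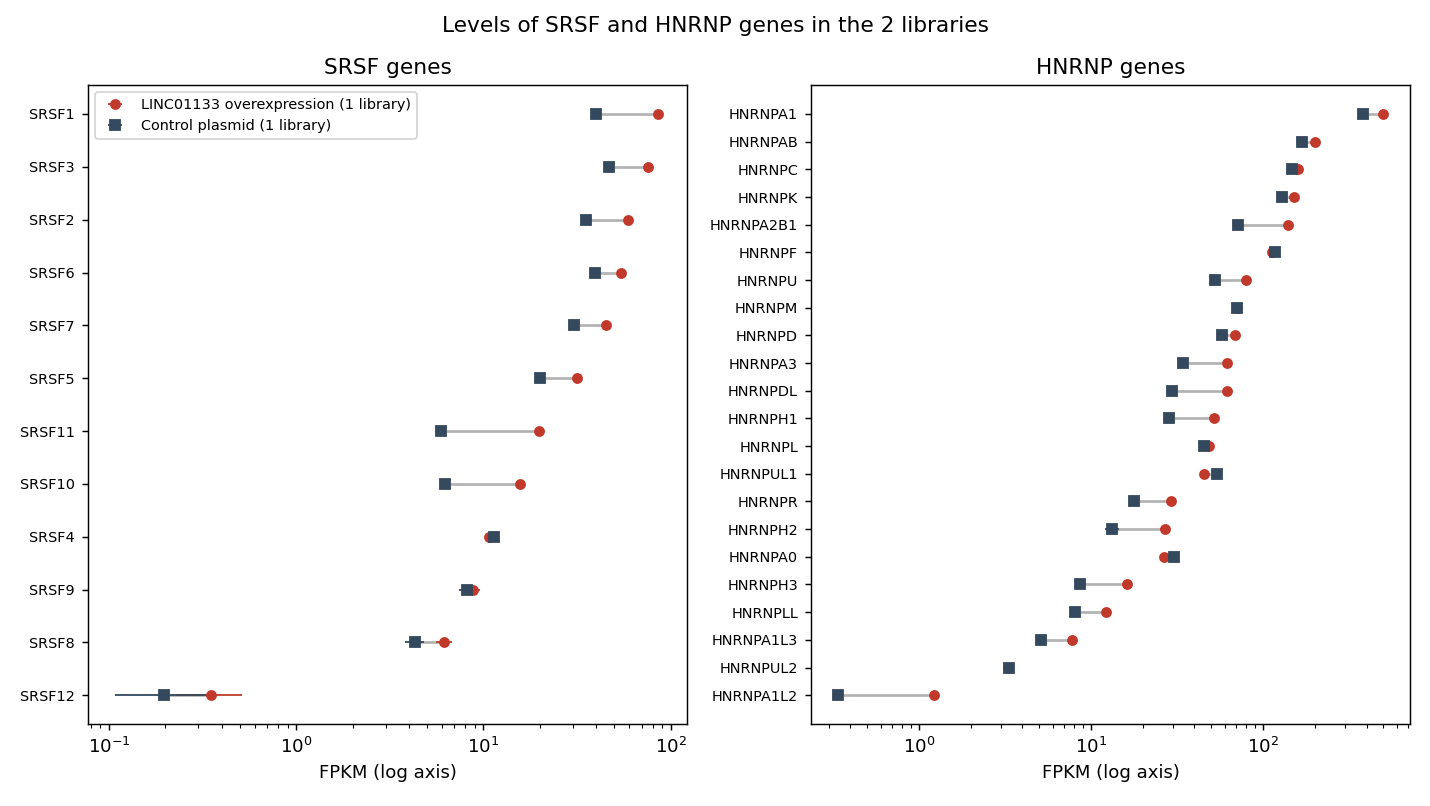
FPKM (log axis) of 12 SRSF genes on the left and 22 HNRNP genes on the right, with the overexpression library as circles, the control library as squares and bars for 95% counting intervals; HNRNPUL2-BSCL2, listed at 0 in the overexpression library, is not drawn. Most circles lie to the right of their squares, by the widest gap for SRSF11 among the SRSF genes past the filter, while HNRNPA0, HNRNPF, HNRNPUL1 and SRSF4 lie slightly to the left.

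Summed over the family, the SRSF genes held 413 FPKM in the overexpression library and 248 FPKM in the control library, a ratio of 1.66. As a share of all counted fragments this was 0.209% in the overexpression library (exact 95% binomial interval 0.207 to 0.211) and 0.125% in the control library (0.123 to 0.127). The HNRNP genes were more abundant and nearer to each other, with 1869.8 FPKM in the overexpression library and 1475 FPKM in the control library, a ratio of 1.27. Their 18 genes with whole fragments held 0.867% of the fragments in the overexpression library (0.863 to 0.872) and 0.706% in the control library (0.702 to 0.710).

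Among the SR proteins with a pair of RNA recognition motifs, SRSF1, the best studied member and a known proto-oncogene, had 85.3 FPKM in the overexpression library and 39.8 FPKM in the control library. The FPKM ratio was 2.14 (2.04 to 2.26) and the log2 ratio 1.08. This gene shares 56.6% of its exon bases with another gene on the same strand and 13.2% with one on the opposite strand, and how such fragments were assigned was not given, so its value is uncertain. SRSF9, its closest relative in build, had 8.81 FPKM in the overexpression library and 8.15 FPKM in the control library, a ratio of 1.08 (0.954 to 1.23). The SRSF1 to SRSF9 quotient was 9.67 in the overexpression library and 4.88 in the control library, so it differed by a factor of 1.98 (approximate 95% counting interval on the log scale 1.73 to 2.27); SRSF9 overlaps a gene on the opposite strand over 46.2% of its exon bases.

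SRSF4, SRSF5 and SRSF6, related proteins of this group that differ in the length of their arginine and serine tail, did not move together. SRSF6, the reported partner of LINC01133, had 54.5 FPKM in the overexpression library and 39.4 FPKM in the control library, a ratio of 1.38 (1.32 to 1.45) with a log2 ratio of 0.46. SRSF5 had 31.8 FPKM in the overexpression library and 20.1 FPKM in the control library, a ratio of 1.58 (1.49 to 1.68). SRSF4 had 10.7 FPKM in the overexpression library and 11.4 FPKM in the control library, a ratio of 0.934 (0.870 to 1.002), the single SRSF gene with a lower value in the overexpression library. The ratio of SRSF6 was 1.48 times that of SRSF4 (1.36 to 1.61), and that of SRSF5 1.70 times (1.55 to 1.86). The ratio of SRSF6 was 0.874 times that of SRSF5 (0.809 to 0.944), so the reported partner lay between its relatives.

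The SR proteins with a single RNA recognition motif were all higher, by similar ratios. SRSF3, which also serves as an adaptor for export of messenger RNA, had 75.4 FPKM in the overexpression library and 47.1 FPKM in the control library, a ratio of 1.60 (1.55 to 1.66). Its relative SRSF7, an export adaptor as well, had 45.3 FPKM in the overexpression library and 30.6 FPKM in the control library, a ratio of 1.48 (1.40 to 1.57). SRSF2, the SR protein mutated in myeloid neoplasms, had 59.4 FPKM in the overexpression library and 35.3 FPKM in the control library, a ratio of 1.68 (1.58 to 1.79), with 36.7% of its exon bases overlapped on the opposite strand. SRSF8, an SRSF2-like gene that arose by retroposition, had 6.14 FPKM in the overexpression library and 4.29 FPKM in the control library, a ratio of 1.43 (1.22 to 1.67). Within this group the log2 ratios spanned 0.43 to 0.73, and the SRSF2 and SRSF8 ratios could not be told apart (quotient 1.18, 0.997 to 1.39). The SRSF3 ratio was slightly above that of SRSF7 (quotient 1.08, 1.01 to 1.16).

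SRSF11 and SRSF10, SR-like proteins outside the classical group, had the highest ratios of the 32 genes past the filter. SRSF11 had 19.7 FPKM in the overexpression library (19.0 to 20.5) and 5.90 FPKM in the control library (5.49 to 6.33), from 2722 and 783 fragments. Its ratio of 3.34 (3.08 to 3.62), with a log2 ratio of 1.59, placed it at the 97.5th percentile of all genes past the filter. SRSF10, which represses splicing when dephosphorylated, in heat shock and in mitosis, had 15.7 FPKM in the overexpression library and 6.25 FPKM in the control library, a ratio of 2.52 (2.34 to 2.71) and a log2 ratio of 1.21. Relative to SRSF4, the SRSF11 ratio was 3.58 times as high (3.22 to 3.98) and the SRSF10 ratio 2.70 times (2.44 to 2.98). SRSF12 was under the filter, with 0.351 FPKM in the overexpression library and 0.196 FPKM in the control library, from 26 and 14 fragments.

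Composition within the family moved accordingly. SRSF1 made up 20.6% of the summed SRSF FPKM in the overexpression library and 16.0% in the control library, where SRSF3 led with 19.0% (18.3% in the overexpression library). SRSF11 held 4.77% in the overexpression library and 2.37% in the control library, and SRSF10 3.81% and 2.52%. The shares of SRSF6 (13.2% in the overexpression library, 15.8% in the control library) and SRSF4 (2.59% and 4.61%) were lower. A share within a library does not depend on how the libraries are scaled against each other.

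**Figure D2:**
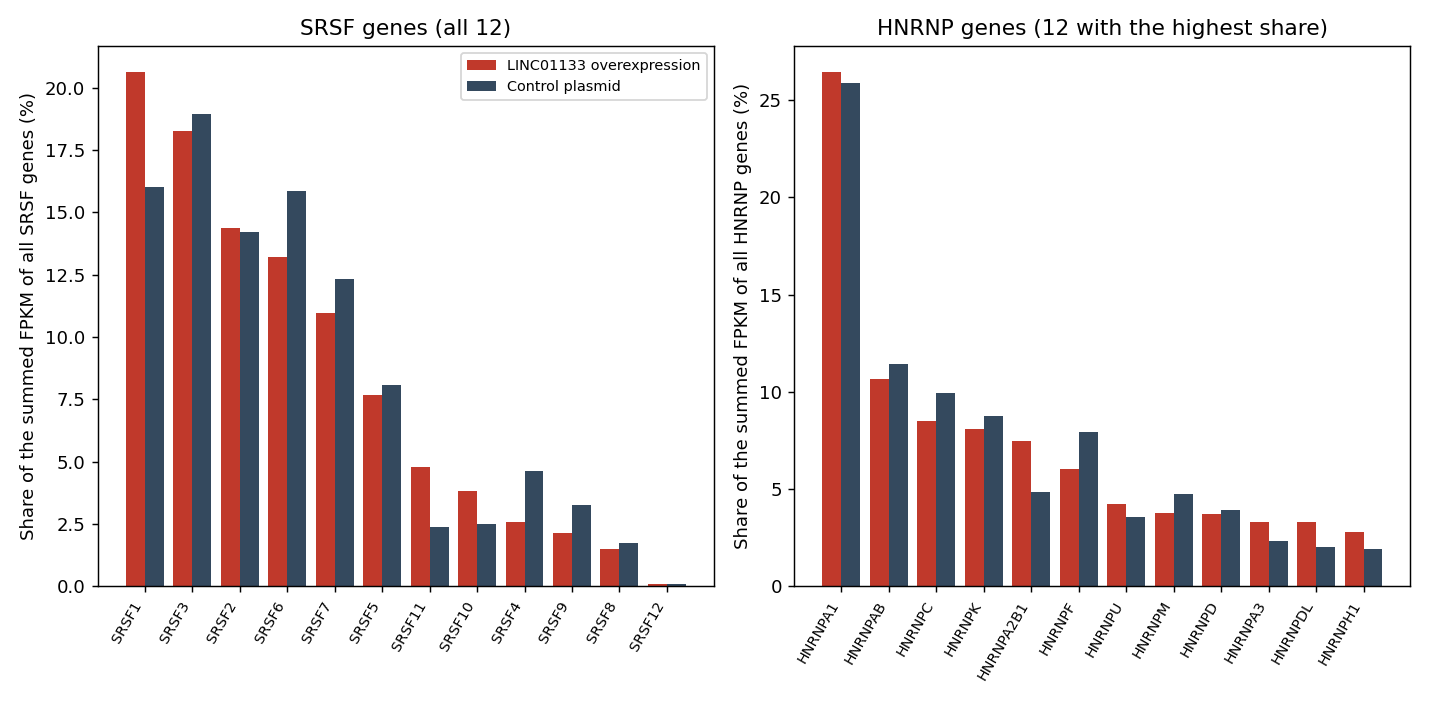
Share (%) of each gene in the summed FPKM of its family, for all 12 SRSF genes on the left and the 12 HNRNP genes with the highest share on the right, with the overexpression library as the left bar of each pair and the control library as the right bar. SRSF1 leads in the overexpression library (20.6%) and SRSF3 in the control library (19.0%), while HNRNPA1 holds about the same share of the HNRNP sum in both (26.5% and 25.9%).

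Of the hnRNP A/B proteins, which bind exonic and intronic silencers, HNRNPA1 was the most abundant gene of either family. It had 495 FPKM in the overexpression library and 381 FPKM in the control library, a ratio of 1.30 (1.28 to 1.32). HNRNPA2B1, which like HNRNPA1 opposes SR proteins and has been reported to read methylated adenosines, had 139.6 FPKM in the overexpression library and 71.7 FPKM in the control library, a log2 ratio of 0.95, with no interval because its values are not whole fragments. HNRNPA2B1 took 7.47% of the summed HNRNP FPKM in the overexpression library and 4.86% in the control library. HNRNPA3 and HNRNPA0 parted within this group. HNRNPA3 had 61.7 FPKM in the overexpression library and 34.1 FPKM in the control library, a ratio of 1.81 (1.73 to 1.89), whereas HNRNPA0, encoded by a gene with no intron, had 26.5 FPKM in the overexpression library and 30.3 FPKM in the control library, a ratio of 0.875 (0.837 to 0.915). Their quotient differed by a factor of 2.07 (1.945 to 2.1996). G or C stands at the third codon position in 25.5% of HNRNPA3 codons and in 75.8% of HNRNPA0 codons, although the whole transcripts have 37.3% and 41.1% GC.

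The HNRNPA1-like genes are near copies of HNRNPA1, and their values are uncertain for that reason. HNRNPA1L3 had 7.80 FPKM in the overexpression library and 5.10 FPKM in the control library. HNRNPA1L2 was under the filter, with 1.22 FPKM in the overexpression library and 0.339 FPKM in the control library. Neither value corresponds to whole fragments.

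The genes of the hnRNP D group, whose namesake binds AU-rich elements, differed among themselves as well. HNRNPDL had 61.4 FPKM in the overexpression library and 29.7 FPKM in the control library, a ratio of 2.07 (1.97 to 2.17), and was the single HNRNP gene at least 2-fold higher. HNRNPD, also known as AUF1, had 69.1 FPKM in the overexpression library and 58.0 FPKM in the control library, a ratio of 1.19 (1.15 to 1.23). HNRNPAB had 199.8 FPKM in the overexpression library and 168.6 FPKM in the control library, a ratio of 1.19 (1.14 to 1.23). The HNRNPDL ratio was 1.73 times that of HNRNPD (1.64 to 1.84).

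The hnRNP F/H proteins bind runs of G, and 3 of the 4 genes were higher by close to the same amount. HNRNPH1 had 52.1 FPKM in the overexpression library and 28.5 FPKM in the control library (ratio 1.83, 1.76 to 1.90). HNRNPH2, an X-linked gene that overlaps a read-through gene over 16.3% of its exon bases, had 26.9 FPKM in the overexpression library and 13.2 FPKM in the control library (ratio 2.03, 1.82 to 2.28). HNRNPH3 had 16.3 FPKM in the overexpression library and 8.68 FPKM in the control library (ratio 1.88, 1.71 to 2.05). HNRNPF stood apart, with 113 FPKM in the overexpression library and 117 FPKM in the control library, a ratio of 0.962 (0.928 to 0.998). Relative to HNRNPF, the ratio was 1.90 times as high for HNRNPH1, 2.11 times for HNRNPH2 and 1.95 times for HNRNPH3, and HNRNPH1 and HNRNPH2 could not be told apart (quotient 0.901, 0.802 to 1.01).

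The abundant hnRNP C, K and M differed little. HNRNPC, which binds runs of U and keeps Alu sequences out of mature transcripts, had 159 FPKM in the overexpression library and 147 FPKM in the control library, a ratio of 1.09 (1.06 to 1.11). HNRNPK, a binder of runs of C, had 151 FPKM in the overexpression library and 129 FPKM in the control library, a ratio of 1.17 (1.14 to 1.20). HNRNPM had 70.8 FPKM in the overexpression library and 70.2 FPKM in the control library, a ratio of 1.01 (0.973 to 1.04). HNRNPR, less abundant, had a larger difference, with 29.1 FPKM in the overexpression library and 17.8 FPKM in the control library and a ratio of 1.63 (1.55 to 1.72).

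HNRNPL and HNRNPLL bind CA-rich sequences, and HNRNPLL is known for its role in lymphocyte splicing. HNRNPL had 48.7 FPKM in the overexpression library and 45.4 FPKM in the control library, a ratio of 1.07 (1.03 to 1.12). HNRNPLL had 12.3 FPKM in the overexpression library and 8.08 FPKM in the control library, a ratio of 1.52 (1.39 to 1.67), which was 1.42 times that of HNRNPL (1.28 to 1.57). In the hnRNP U group, HNRNPU, also called scaffold attachment factor A, had 79.2 FPKM in the overexpression library and 52.7 FPKM in the control library, a log2 ratio of 0.58, without whole fragments and with 15.6% of its exon bases overlapped on the opposite strand. HNRNPUL1, a relative with a role in the response to DNA breaks, had the lowest ratio of all 32 genes, at 45.2 FPKM in the overexpression library and 54.3 FPKM in the control library (ratio 0.833, 0.801 to 0.866). HNRNPUL2 had 3.30 FPKM in the overexpression library and 3.33 FPKM in the control library. Its values are not whole fragments, and 44.1% of its exon bases are shared on the same strand, so they are uncertain. The read-through gene HNRNPUL2-BSCL2, all of whose exon bases are shared with other genes, was listed at 0 in the overexpression library, with a 95% upper limit of 0.0566 FPKM, and had 0.0798 FPKM in the control library, from 5 fragments.

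FPKM rests on the merged exon length of each gene, which exceeds that of its transcripts by different amounts, so the order of levels depends on the length used. Scaled to the longest coding transcript, HNRNPA2B1 stood at 353 in the overexpression library and 181 in the control library and HNRNPF at 133 in the overexpression library and 139 in the control library, in place of 139.6 and 71.7 FPKM for HNRNPA2B1 and 113 and 117 FPKM for HNRNPF. The ratios between libraries do not depend on this length. One value per gene also leaves isoforms unresolved, among them the transcripts marked for nonsense-mediated decay in GENCODE 29, of which SRSF1 has 3, SRSF7 has 6, HNRNPDL has 4 and HNRNPU has 9.

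The differences between the genes followed base composition, as those of all genes did. All genes past the filter were ranked by the GC content of their longest coding transcript and cut into 10 bins of equal size. In the lowest bin (26.9% to 38.7% GC) the log2 ratio had a median of 1.14 and 60.7% of the genes passed 2-fold, whereas the median of the highest bin (62.3% to 83.6%) was -0.39. The splicing factors are rich in A and T by comparison, with a median GC content of 42.2%, beside 49.0% over all genes past the filter. Of the 32 genes, 18 were in the 3 lowest bins and 0 in the 2 highest. SRSF11 has 38.3% GC, SRSF10 36.2% and SRSF1 41.2%, while SRSF4 has 52.2%, SRSF9 52.3% and HNRNPUL1 56.3%.

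Across genes, the log2 ratio and GC content had a Pearson r of -0.59 and a Spearman coefficient of -0.58 over the 32 splicing factors, and r was -0.52 without the 2 genes farthest in GC content. Over the 11 SRSF genes r was -0.75 and the Spearman coefficient -0.70, but r was -0.49 without the 2 farthest. Over the 21 HNRNP genes r was -0.52 and the Spearman coefficient -0.49, and GC at the third codon position had the larger values, with r -0.79 and a Spearman coefficient of -0.70. For the SRSF genes the third position had the smaller ones, with r -0.39 and a Spearman coefficient of -0.31. Without the 2 genes farthest in third-position GC, r was -0.56 over the SRSF genes, so there the order of the 2 measures reversed. Over the HNRNP genes r was then -0.74 for the third position, and -0.39 for GC content without its own 2 farthest. Over 11913 genes the Spearman coefficient was -0.801. These coefficients are across genes of the same 2 libraries, share their depth and scaling, and are a description only.

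Set against genes of like GC content by the longest coding transcript, the splicing factors lay as often below as above. The bins were not drawn by other transcripts, and the place of a gene can differ with the transcript used, as described below. Of the 32, 16 lay above the median of their own GC bin. In the 3 lowest bins 4 of 18 did, with HNRNPA0 and, by its longest coding transcript, HNRNPC far below genes of their composition, and in bins 4 to 8, counted from the lowest, 12 of 14 did, among them SRSF5, SRSF9, HNRNPH1 and HNRNPAB. The plot of log2 ratio by GC content shows both ends. Whether composition, library preparation or LINC01133 set the ratios was not tested, and with 1 library per group they cannot be told apart.

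**Figure D3:**
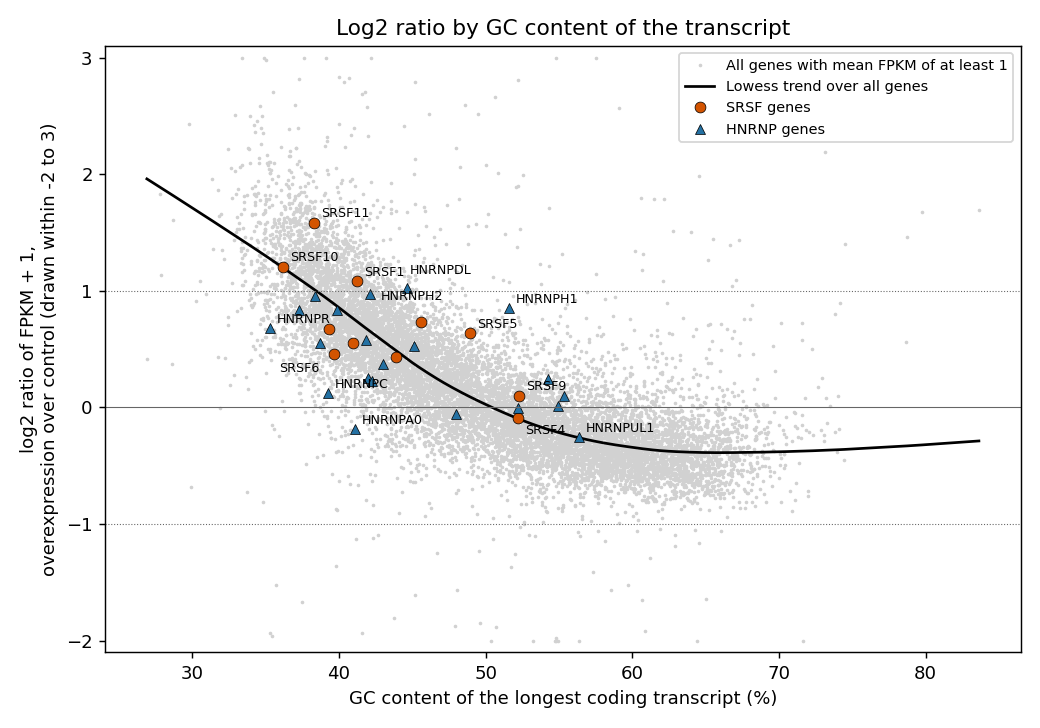
Log2 ratio of FPKM + 1, overexpression over control, by the GC content (%) of the longest coding transcript, with SRSF genes as circles, HNRNP genes as triangles, all other genes past the filter in grey (values beyond -2 and 3 drawn at the edge) and the lowess trend over all genes as a line. SRSF11 (1.59) lies above the trend, SRSF10 (1.21) on it, and HNRNPC (0.12) and HNRNPA0 (-0.19) well below it.

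When the trends over all genes on GC content and then on transcript length, by the longest coding transcript, were subtracted, the family medians lay close to that of all genes. The median log2 ratio became 0.15 over the SRSF genes and 0.04 over the HNRNP genes, beside 0.10 over all genes and 0.09 over protein-coding genes. SRSF5 at 0.67, SRSF11 at 0.66 and SRSF2 at 0.52 were then the highest SRSF genes, and SRSF6 was the lowest at -0.35. HNRNPH1 at 1.01 was the one of the 32 past 1, as were 1.7% of all genes, with HNRNPDL at 0.69 and HNRNPAB at 0.60 next among the HNRNP genes. HNRNPA0 at -0.90 and HNRNPC at -0.73 were the lowest, and 14 of the 32 changed the side of 0.

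These values depend on which transcript stands for the gene. With the median GC content and length over the complete coding transcripts of each gene, the medians were 0.36 over the SRSF genes and 0.24 over the HNRNP genes. Both lay above the median of all genes, which the subtraction keeps in place at 0.10. By this choice 22 of the 32 had a log2 ratio above 0, beside 19 by the longest coding transcript. SRSF1 then stood at 1.17 instead of 0.45, SRSF10 at 0.72 instead of 0.11, and HNRNPC at -0.20 instead of -0.73, as its median transcript has 44.4% GC and its longest coding one 39.2%. HNRNPR stood at 0.24 instead of -0.56 and HNRNPH1 at 0.39 instead of 1.01, where the longest coding transcript of HNRNPH1 has 51.6% GC and the median over its transcripts is 43.3%. Under both choices SRSF1, SRSF2 (0.83), SRSF5, SRSF11 (0.60), HNRNPAB, HNRNPDL (0.45) and HNRNPL stayed above 0.4. Below 0 under both were SRSF6 (-0.43), SRSF7, HNRNPA0 (-0.98), HNRNPA1, HNRNPC, HNRNPF, HNRNPK, HNRNPLL and HNRNPU.

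**Figure D4:**
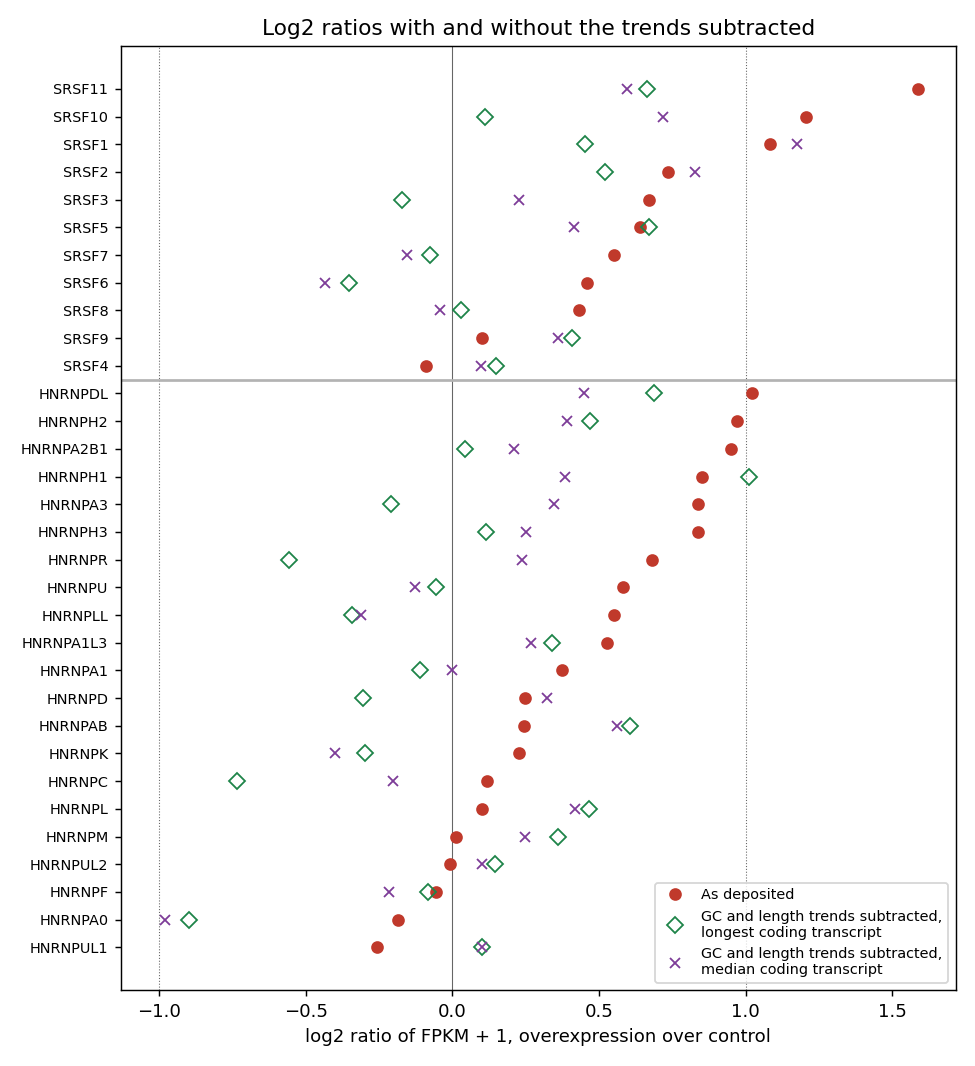
Log2 ratio of FPKM + 1, overexpression over control, of the 32 genes past the filter as deposited (filled circles), and after subtraction of both trends, taken by the longest coding transcript (open diamonds) or by the median over coding transcripts (crosses). SRSF11, SRSF2 and HNRNPDL are among the genes to the right of 0 in all 3, and HNRNPA0 and HNRNPF are to the left. HNRNPH1 (1.01 and 0.39) and SRSF1 (0.45 and 1.17) are among those that move with the transcript used.

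Other splicing genes were grouped in lists drawn up for this pathway with earlier results of these data known. Their counts stand beside the 11.9% of all genes past the filter that were at least 2-fold higher and the 0.444% that were lower. For these lists the trends were taken by the longest coding transcript only. Of SR-related proteins, which carry arginine and serine repeats without being classical SR proteins, 5 of 17 past the filter (29.4%) were higher by 2-fold or more and 0 lower, with a median log2 ratio of 0.63 (0.20 with the trends subtracted). The highest were BCLAF1, with 12.7 FPKM in the overexpression library and 3.57 FPKM in the control library, and U2SURP, with 11.9 FPKM and 3.40 FPKM. The lowest were the GC-rich SRRM3 (68.0% GC, log2 ratio -0.49) and SCAF1 (68.5%, -0.47). Of the kinases that phosphorylate SR proteins, 2 of 8 (25%) were higher and 0 lower, with a median of 0.76 (0.23 with the trends subtracted).

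Among those kinases, PRPF4B had 15.1 FPKM in the overexpression library and 4.48 FPKM in the control library. CLK1, which releases SR proteins from nuclear speckles, had 6.40 FPKM in the overexpression library and 2.30 FPKM in the control library. Its log2 ratio of 1.17 was 1.03 with the trends subtracted by the longest coding transcript, the only choice used for this gene. The related CLK2 and CLK3 stood at -0.02 and -0.12.

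Heterogeneous nuclear ribonucleoproteins with other symbols had a smaller median of 0.17 (0.08 with the trends subtracted), with 2 of 16 (12.5%) higher, near the 11.9% of all genes, and 0 lower. PTBP3, a polypyrimidine tract binder, had 31.1 FPKM in the overexpression library and 10.8 FPKM in the control library, and SYNCRIP, a relative of HNRNPR, 30.6 FPKM and 12.9 FPKM. At the other end PCBP1, a binder of runs of C, had 51.5 FPKM in the overexpression library and 80.2 FPKM in the control library, and PCBP4 stood at -0.47. Of other splicing regulators 4 of 20 (20%) were higher, beside 11.9% of all genes, and 0 lower, with a median of 0.41 (0.19), led by MBNL1 at 18.4 FPKM in the overexpression library and 5.12 FPKM in the control library and TIA1 at 18.0 FPKM and 5.50 FPKM, while RBM10 (-0.48) and MSI1 (-0.26) were lowest.

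The core of the spliceosome was spread on both sides of 0. Of 39 core proteins 17 had a log2 ratio above 0, 4 (10.3%) were at least 2-fold higher, near the 11.9% of all genes, and 0 lower, with a median log2 ratio of -0.15 (0.02 with the trends subtracted). LUC7L3, linked to early recognition of the 5′ splice site, was among the highest, with 19.2 FPKM in the overexpression library and 7.11 FPKM in the control library. SF3B5 and SF3A2, parts of the U2 particle, were the lowest, with SF3B5 at 82.6 FPKM in the overexpression library and 161 FPKM in the control library and SF3A2 at 37.3 FPKM and 58.7 FPKM. The list has a median GC content of 50.3%, against 41.2% for the SRSF genes.

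Of the factors of nonsense-mediated decay, 3 of 15 (20%) were higher, beside 11.9% of all genes, and 0 lower, with a median of 0.17 (0.07 with the trends subtracted). UPF3B had 8.62 FPKM in the overexpression library and 2.88 FPKM in the control library, and the kinase SMG1 5.31 FPKM and 2.02 FPKM, whereas the helicase UPF1 (-0.34) and SMG5 (-0.42) were lowest. Of the genes for nuclear import and arginine methylation of these proteins, 1 of 8 (12.5%) was higher, near that share, and 0 lower, with a median of -0.24 (0.00). TNPO1, the import receptor of HNRNPA1, had 21.2 FPKM in the overexpression library and 6.82 FPKM in the control library, and PRMT6 stood at 0.37. The methyltransferases PRMT1 (54.7 FPKM in the overexpression library and 81.7 FPKM in the control library) and CARM1 (56.5 FPKM and 81.4 FPKM) were the lowest.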

How the data were processed

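Poly(A)-selected RNA of 2 libraries, 1 per group, was sequenced; groups follow the sample labels. The labels do not name the unit of the authors' gene values; the deposited values were read as FPKM because, multiplied by the merged exon length in GENCODE 29, they give whole fragments (tolerance 0.02) for 94.4% of genes in the overexpression library and 94.5% in the control library. This also gave the depth. The submitters' processing notes name HTSeq 0.6.0, HISAT2 2.1.0, Bowtie2 2.2.3 and the build GRCh38; settings for strand and overlapping genes are not given in the sources used here, so values of overlapping genes, copies and antisense partners are uncertain.

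Symbols were matched for 27911 and exon lengths for 28109 of 28303 identifiers. Genes with a mean of at least 1 FPKM were kept, 11945 in all. Log2 ratios compare FPKM + 1 in the overexpression library with FPKM + 1 in the control library and understate differences at low values; ratios without "log2" are of FPKM. Intervals are 95% and cover counting error: Poisson for levels, Clopper-Pearson for ratios and shares, and a normal approximation on the log scale for quotients of 2 ratios. Amplified fragments are not independent molecules. Trends on GC content and then log2 length were fitted by lowess (span 0.3, statsmodels 0.14.6, Python 3.11.15) and subtracted so that the median of all genes stayed in place. The calculation was checked on simulated data with a known GC trend and counting noise. These held no length trend, no overlapping genes and no choice between transcripts, so the check does not cover those.

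The members and gene lists were chosen with earlier results of these data known. Named were every member, LINC01133, and the 2 largest and 2 smallest log2 ratios past the filter of each other list. A gene that this rule names is not reported here. Alternatives were 3 scalings, other filters, pseudocounts and fold thresholds, trend subtraction, and, chosen after seeing the data, other transcripts for the trends and subsets of members.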

Additional observations from a re-analysis of the deposited data

Results flagged for a closer look

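Some copies and an antisense partner of the splicing factor genes, which none of the comparisons above use, had more signal in the overexpression library than in the control library, while other copies did not. Of 39 pseudogenes listed, 5 passed a mean of 1 FPKM, and their summed level was 58.5 FPKM in the overexpression library and 47.6 FPKM in the control library. HNRNPCP2 had 24.9 FPKM in the overexpression library and 18.0 FPKM in the control library, from 358 and 248 fragments (ratio 1.39, 1.18 to 1.64). HNRNPA3P6 had 2.68 FPKM in the overexpression library, from 44 fragments against 17 in the control library (ratio 2.49, 1.39 to 4.64). Of the other pseudogenes past 1 FPKM, HNRNPLP2 was lower in the overexpression library (ratio 0.736, 0.582 to 0.930), and the intervals of HNRNPKP4 (0.936, 0.760 to 1.15) and HNRNPA1P10 (1.20, 0.953 to 1.52) held 1. HNRNPH1P1 had 0.414 FPKM in the overexpression library, from 8 fragments, and 0 fragments in the control library, with an exact 95% lower limit of 1.64 for the ratio. Reads of these copies and of their parent genes are near identical, and how they were assigned was not given.

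HNRNPK-AS1, which lies over HNRNPK on the opposite strand for 79.2% of its exon bases, had 1.57 FPKM in the overexpression library, from 10 fragments, and 0.164 FPKM in the control library, from 1 fragment. Without the strand setting, its fragments and those of HNRNPK cannot be told apart.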

How the results depend on the processing

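No paired analysis was possible because a single library stood for each group. Of the 32 genes past the filter, the 4 that were at least 2-fold higher became 2 under median of ratios scaling, 2 under trimmed mean of M values scaling, 1 under upper quartile scaling, 1 with GC content and length trends subtracted, 1 with the GC content trend alone, 1 with the trends by median coding transcripts, 13 at 1.5-fold, 0 at 4-fold and 22 by the interval of the ratio. None was lower except 3 by the interval. The interval was available for 28 of the 32, and over all genes with whole fragments it lay above 1 for 42.6% and below 1 for 32.2%. The counts at 1.5-fold and 4-fold have no share of all genes beside them here, so they are not read as a trait of these families. The SRSF median log2 ratio of 0.64 was 0.44, 0.43 and 0.40 under the 3 scalings in that order, 0.15 with both trends subtracted, 0.11 with GC content alone and 0.36 with median coding transcripts. The HNRNP median of 0.38 was 0.17, 0.16 and 0.13 under the scalings, 0.45 at a mean of at least 5 FPKM, 0.043 with both trends subtracted, 0.050 with GC content alone, 0.24 with median coding transcripts, 0.31 without members that share over 10% of exon bases with another gene and 0.25 with whole-fragment members only. The last 2 and the median coding transcripts were chosen after seeing the data. No median changed sign. Over all genes, the 1421 higher and 53 lower became 902 to 986 and 111 to 153 under the scalings, 2244 and 127 with a pseudocount of 0.1, and 203 and 91 with both trends subtracted. They were 219 and 84 with GC content alone, and 260 and 84 with median coding transcripts. The causes were not tested. Depth limits SRSF12 and HNRNPUL2-BSCL2, with 26 fragments or fewer.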
